A study of Mus musculus with 6 samples.

Results

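Imprinted genes are genes that a cell reads mainly from the copy inherited from one parent. The genes described here are those on a list of 51 mouse imprinted genes, including Dlk1 and Meg3, that were chosen by symbol and sorted into 19 imprinted clusters. Of these 51 genes, 23 were found by symbol among the 14774 genes of the count table, in 13 clusters, and the other 28 were not analysed here. The genes not analysed include Meg3, Igf2, H19, Peg3, Mest, Grb10, Igf2r, Peg10, Ndn, Nnat and Dcn.

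The study asked what STAR, the protein that carries cholesterol to the mitochondrion for steroid synthesis, does in Leydig cells that are not stimulated by hormone. Total RNA of untreated MA-10 cells, a line from a mouse Leydig cell tumor that is wild type for Star, was sequenced in 3 libraries. These were compared with 3 libraries of untreated STARKO1 cells, which are MA-10 cells with the STAR KO genotype, made by CRISPR/Cas9 targeting of Star. STARKO1 was grown from a sorted single cell, so an effect of losing STAR cannot be told apart from a difference between this clone and its parent line. The methods say in general that data came from independent experiments unless stated otherwise, but neither they nor the labels say this of the sequencing libraries. If the 3 libraries of a cell line did not come from separate cultures, p-values measure only the spread between these libraries, which may be technical.

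Imprinted genes lie in clusters, and each cluster has a control region that carries DNA methylation on one parental copy, set in the germ line and kept in body cells. A cluster often holds protein-coding genes read from one parental copy and long noncoding RNAs read from the other. In the Dlk1-Meg3 cluster, the paternal copy gives Dlk1 and Rtl1 and the maternal copy gives Meg3, Rian and Mirg, long transcripts that hold small nucleolar RNAs and microRNAs. DLK1 is a membrane protein related to the Notch ligands that is known for holding back fat cell differentiation, and it is found in fetal Leydig cells and in the adrenal cortex. The counts do not separate the parental copies, so the values below are sums of both.

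Across the 6 libraries the total count was between 14114351 and 19530062. Star was counted 1064, 1261 and 697 times in the MA-10 libraries and 48, 46 and 36 times in the STARKO1 libraries, each in the order of replicates 1, 2 and 3. In CPM, counts divided by library sizes that edgeR had adjusted by TMM, its mean level was 77.2 ± 27.8 (SD, n = 3) for MA-10 against 2.27 ± 0.386 in STARKO1 cells, a log2 fold change of -5.09 (adjusted p = 0.00121). MA-10 replicate 1 stood apart from MA-10 replicates 2 and 3, whose correlation across genes was 0.974. The correlation across genes of MA-10 replicate 1 was 0.802 and 0.874 with the other MA-10 replicates and between 0.949 and 0.955 with the STARKO1 libraries. It held 1.81% 7SL RNA against 14.4% and 6.63% in MA-10 replicates 2 and 3, while the STARKO1 libraries held 1.82%, 2.19% and 2.37%. The TMM factors were 1.16, 0.654 and 0.805 in MA-10 and 1.19, 1.18 and 1.17 in STARKO1 cells. By both measures MA-10 replicates 2 and 3 were the libraries unlike the rest. Fits without MA-10 replicate 1 thus compare only MA-10 replicates 2 and 3 with STARKO1 cells. The level of MA-10 replicate 1 was nearer to the STARKO1 mean than to that of the other MA-10 libraries for 16 of the 22 imprinted genes tested, or 72.7%, against 69.7% of all genes tested. All 10 Leydig markers, among them Cyp11a1 and Nr5a1, were above 3 counts in every library. Their summed level was 1960 to 2660 CPM in MA-10 against 1580 to 1660 CPM in STARKO1 cells. By edgeR's quasi-likelihood test, 2 of the 10 had an adjusted p under 0.05, against 9.04% of all genes tested. The 2 were Star, the gene targeted by CRISPR/Cas9, and Hsd3b1, both lower in STARKO1 cells. Hsd3b1 had means of 29.8 and 5.19 CPM, with a log2 fold change of -2.52 (adjusted p = 0.00268). The estimates were below 0 for 6 of the 10 markers and above 0 for 4. Among them were -0.93 for Cyp11a1 (adjusted p = 0.067) and 0.42 for Nr5a1 (adjusted p = 0.189). Of the markers of other testis cells, 1 of 5 Sertoli, 1 of 5 germ cell, 2 of 5 macrophage, 2 of 5 endothelial and 2 of 5 peritubular genes were in the table. The endothelial sum was 26.4 to 41.5 CPM in MA-10 against 118 to 124 CPM in STARKO1 cells, and the peritubular sum was 13 to 20.5 and 1.72 to 2.59 CPM. Each sum was mostly 1 gene. Cdh5 had means of 33.8 and 121 CPM, against 0.423 and 0.729 CPM for Pecam1, the other endothelial gene. Des had means of 15.3 and 1.93 CPM, against 0.591 and 0.335 CPM for Myh11, the other peritubular gene. The edgeR quasi-likelihood test gave adjusted p values of 0.00596 for Cdh5 and 0.00499 for Des. Over all libraries the Sertoli sum was 16.9 to 20.2, the germ cell sum 1.91 to 3.55 and the macrophage sum 4.86 to 9.85 CPM. Whether these markers bear on the other results was not tested.

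Dlk1 was lower in STARKO1 cells, and it was the 1 gene among the 22 imprinted genes tested that passed an adjusted p of 0.05 by the edgeR quasi-likelihood test, with p values adjusted by Benjamini-Hochberg. Among all 11939 genes tested, 9.04% (1079 genes) passed, 4.30% higher and 4.74% lower in STARKO1 cells. Dlk1 was counted 672, 234 and 250 times in MA-10 replicates 1, 2 and 3 and 6 times in each STARKO1 library. These counts correspond to 38.5, 20.3 and 22.0 CPM in MA-10 cells and 0.258, 0.354 and 0.337 CPM in STARKO1 cells. Every MA-10 library was far above every STARKO1 library, and within MA-10 cells the highest value was in replicate 1, the library that otherwise lay nearest to STARKO1. The STARKO1 counts were low but above the floor of 3 counts per library.

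The mean Dlk1 level was 26.9 ± 10 CPM (SD, n = 3) for MA-10 against 0.316 ± 0.0511 CPM in STARKO1 cells, an 85.1-fold lower level. The log2 fold change was -6.40 (SE 0.384, adjusted p = 0.00116), and Dlk1 ranked 17 by estimated log2 fold change among the 566 genes called lower in STARKO1 cells. In MA-10 cells, 53.0% of the genes tested had a lower mean CPM than Dlk1. The call held when any of the 6 libraries was left out, with log2 fold changes between -6.57 and -5.97.

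Dlk1 lies on chromosome 12 from 109452823 to 109463337 on the plus strand of build GRCm38. The 250 bases before its start are shown because Dlk1 is the imprinted gene whose level differed, and because imprints are carried by methylated CG pairs, which stand in capitals below. The sequence is that of RefSeq for build GRCm38.p6 at chr12:109452573-109452822, plus strand.
Dlk1 upstream: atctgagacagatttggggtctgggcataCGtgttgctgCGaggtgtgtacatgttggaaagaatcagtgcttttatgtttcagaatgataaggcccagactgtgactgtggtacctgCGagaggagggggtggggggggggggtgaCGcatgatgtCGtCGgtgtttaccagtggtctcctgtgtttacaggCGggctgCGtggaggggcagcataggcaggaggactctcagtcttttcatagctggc
This stretch holds 8 CG pairs. With the first 50 bases of the gene added there were 9, against a median of 7 over 32851 RefSeq promoters of the same length, of which 54.2% held fewer. By the same measure the Rian promoter held 0 CG pairs, the Mirg promoter 10 and the Plagl1 promoter 26. TGCCGC, the letters that ZFP57 binds when they are methylated, and GGNGGCAG, the core of the CTCF motif, were searched on both strands. Neither was found in these 300 bases of Dlk1, while 11.6% and 12.6% of all promoters held them. The control region of the cluster was not examined, and this stretch was not shown to be part of it. DNA methylation was not measured in these files.

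**Figure D1:**
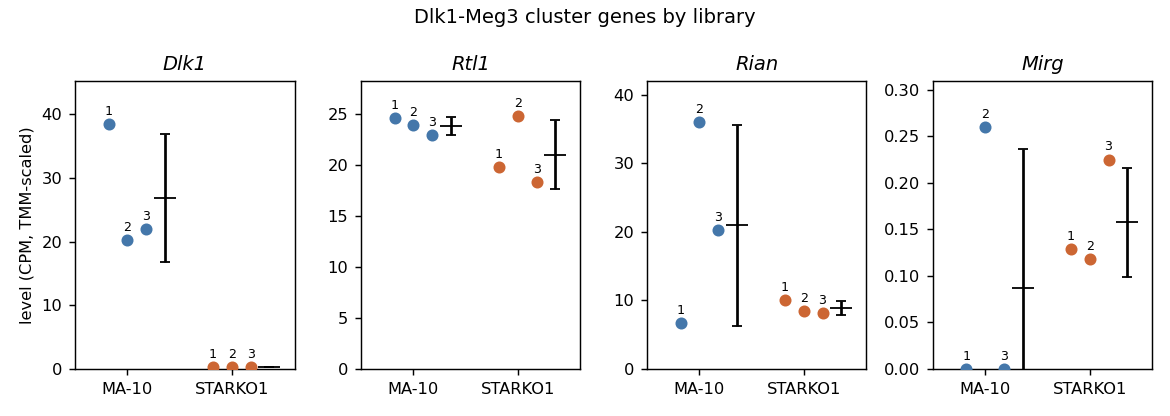
Level (CPM on TMM-scaled library sizes, linear axes from 0 with a range of their own in each panel) of the 4 genes of the Dlk1-Meg3 cluster in MA-10 and STARKO1 cells. Points are libraries numbered by replicate, and black bars are the mean ± SD of 3 libraries. Dlk1 stood at 20.3 CPM or more in MA-10 cells and at 0.354 CPM or less in STARKO1 cells, while the Rtl1, Rian and Mirg libraries of the 2 cell lines overlapped.

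Rtl1, a retrotransposon-derived gene that the placenta needs, is read from the same parental copy as Dlk1 and starts 136.4 kb after it. It was counted 430, 276 and 260 times in MA-10 cells and 460, 420 and 325 times in STARKO1 cells. These counts correspond to 24.6, 23.9 and 22.9 CPM and to 19.8, 24.8 and 18.3 CPM. The groups overlapped, because STARKO1 replicate 2 was above all MA-10 libraries. The means were 23.8 ± 0.871 and 20.9 ± 3.40 CPM, with a log2 fold change of -0.19 (SE 0.171, adjusted p = 0.437) that turned to 0.24 when libraries were scaled by their totals alone. Dlk1 counts per Rtl1 count, which do not depend on the scaling of the libraries, were 1.56, 0.848 and 0.962 in MA-10 cells and 0.0130, 0.0143 and 0.0185 in STARKO1 cells.

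The maternal copy is read through Rtl1 on the opposite strand, and this antisense transcript gives microRNAs that cut Rtl1 RNA. The kit keeps the strand of the RNA, but the sources used here do not say whether the strand was used in counting, so reads of Rtl1 and of its antisense transcript cannot be told apart. RefSeq (build GRCm38.p6) places 6 hairpins with 11 mature microRNAs on the strand opposite Rtl1. They lie opposite transcribed Rtl1 sequence, so by position all 11 have a full complement in the Rtl1 transcript. They share no seed. To show what lies opposite Rtl1, 1 mature microRNA of each hairpin is given with its seed, bases 2 to 8, in capitals.
mmu-miR-431-5p: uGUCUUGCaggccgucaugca
mmu-miR-433-3p: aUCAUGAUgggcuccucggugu
mmu-miR-127-3p: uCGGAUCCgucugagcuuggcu
mmu-miR-434-3p: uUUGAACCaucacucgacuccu
mmu-miR-432: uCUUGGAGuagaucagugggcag
mmu-miR-136-5p: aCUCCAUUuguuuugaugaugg
The libraries were not made for small RNA, and mature microRNAs have no value here.

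Rian, a maternal long noncoding RNA that holds small nucleolar RNAs and 3 microRNA hairpins, was counted 117, 415 and 229 times in MA-10 cells and 233, 143 and 146 times in STARKO1 cells. These counts correspond to 6.70, 36 and 20.2 CPM and to 10, 8.43 and 8.20 CPM. MA-10 replicates 2 and 3 were above the STARKO1 libraries, and MA-10 replicate 1 was below all of them. The log2 fold change was -1.23 (SE 0.540, adjusted p = 0.145), and without MA-10 replicate 1 it was -1.56 with an adjusted p of 0.000477. Mirg, which holds 14 microRNA hairpins, was counted 0, 3 and 0 times in MA-10 cells and 3, 2 and 4 times in STARKO1 cells. These counts were too low for the test. Per kilobase of exon, the mean level of Dlk1 in MA-10 cells was 4.76 CPM, against 3.75 CPM for Rtl1, 1.15 CPM for Rian and 0.0119 CPM for Mirg. In STARKO1 cells, Dlk1 stood at 0.0559 CPM per kilobase, below Rtl1 at 3.29 CPM and Rian at 0.487 CPM per kilobase.

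Around the Dlk1-Meg3 cluster, 2 of the 9 other tested genes within 1 Mb passed the test, or 22.2% against 9.04% of all genes, in opposite directions. The count was 4 with DESeq2, which called 28.4% of all genes, and 7 without MA-10 replicate 1, when 65.7% of all genes passed. Ppp2r5c, a regulatory subunit of protein phosphatase 2A, was lower in STARKO1 cells, with 103 ± 14.0 CPM in MA-10 against 57.9 ± 3.75 CPM in STARKO1 cells (log2 fold change -0.84, SE 0.165, adjusted p = 0.0318). Slc25a29, a mitochondrial carrier of basic amino acids, was higher, with 2.93 ± 1.00 and 6.75 ± 0.695 CPM (log2 fold change 1.19, SE 0.282, adjusted p = 0.0483). When a library was left out, each of these calls held only without MA-10 replicate 1, with adjusted p values of 0.000860 and 0.000315, and was lost without any of the other 5. Yy1, Wars and Wdr25, which lie on the same side of Dlk1 as Slc25a29, had log2 fold changes of -0.41, -0.58 and 0.66 and did not pass, and that of Yy1 turned to 0.03 when libraries were scaled by their totals alone.

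Within 2 Mb of Dlk1, 6 of the 25 other tested genes passed, or 24.0% against 9.04% of all genes, 5 of them lower in STARKO1 cells, and the median log2 fold change was -0.24. The calls of Setd3, Ccnk and Mok, all lower, held in 2, 1 and 1 of the 6 fits that left out a library. With library totals alone, their adjusted p in edgeR's test was 0.102, 0.299 and 0.0893. On the whole of chromosome 12, 49 of 423 tested genes passed (11.6%), 39 of them lower, with a median of -0.33, against -0.05 for all genes. These counts were 15 and 263 without MA-10 replicate 1, when 65.7% of all genes passed. DESeq2 called 9 and 127, and 28.4% of all genes. Ccdc85c, chosen after its values were seen, was the other gene near Dlk1 with a difference of this size. It starts at -1249.2 kb from the start of Dlk1 and was counted 282, 67 and 78 times in MA-10 cells and 4, 0 and 2 times in STARKO1 cells. Its groups did not overlap, and it had a log2 fold change of -6.47 (SE 0.735, adjusted p = 0.00641), a call that held in 5 of the 6 fits that left out a library and reached 0.0541 without STARKO1 replicate 3. Of the 5 tested genes between Ccdc85c and Dlk1, only Slc25a29 passed, and it was higher.

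**Figure D2:**
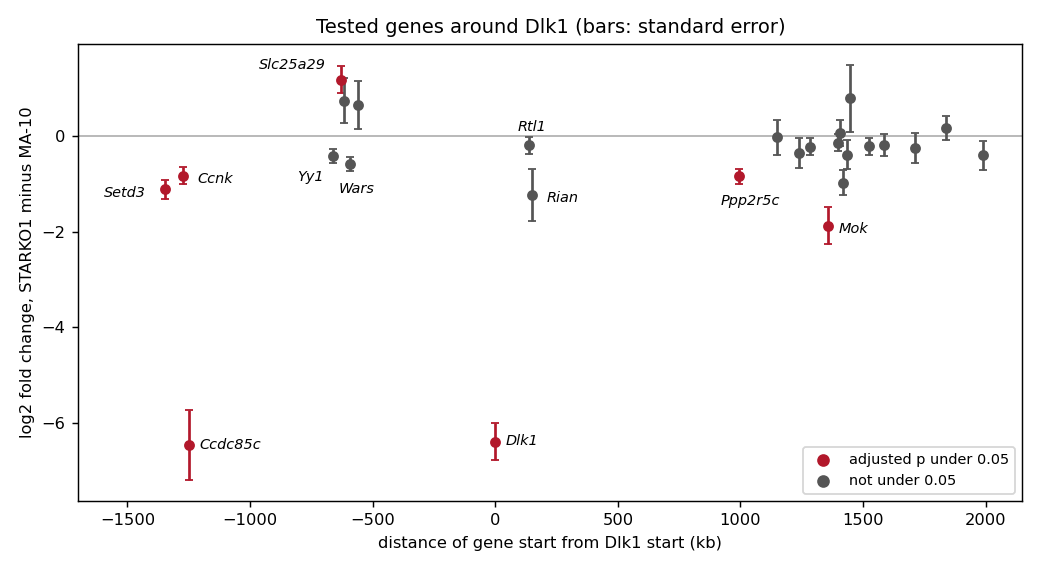
Log2 fold change (STARKO1 minus MA-10, bars are the standard error) of Dlk1 and the 25 other tested genes within 2 Mb of it, against the distance of each gene's start from that of Dlk1 in kb. Red points passed an adjusted p of 0.05. Dlk1 at -6.40 and Ccdc85c at -6.47 stand far below the other genes, which lie between -1.87 and 1.19.

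None of the other 21 imprinted genes tested passed, and their smallest adjusted p was 0.0574. In the test without adjustment for the number of genes, 7 of the 22 imprinted genes had a p under 0.05, 2 higher (15.0% of all genes) and 5 lower (22.7%), in all against 37.6% of all genes. The libraries of the 2 cell lines did not overlap for 10 of the 22, with STARKO1 above for 3 and below for 7, against 42.5% of all genes (21.5% above and 21.0% below). The median log2 fold change of the 22 was -0.26, with 16 estimates below 0 and 6 above, but scaling by library totals alone put 14 above 0 and moved the median to 0.16. The median of all genes was -0.05 and moved by 0.43 with the same scaling. The number called rested on MA-10 replicate 1. Without it, 14 imprinted genes passed (63.6%), 5 higher and 9 lower in STARKO1 cells, while 65.7% of all genes passed. DESeq2 called 6 of the 22 (27.3%), namely Dlk1, Plagl1, Zrsr1, Commd1, Herc3 and Impact, and 28.4% of all genes. Of the genes assigned to the paternal copy where they are imprinted, 10 were tested, 1 passed, 4 had an unadjusted p under 0.05, DESeq2 called 4 and the median was -0.46. Of those assigned to the maternal copy in the same way, 11 were tested, 0 passed, 2 had an unadjusted p under 0.05, DESeq2 called 1 and the median was -0.10. Of these, 7 of the 10 and 6 of the 11 passed without MA-10 replicate 1. The difference between these sets was not tested. The assignment need not hold in Leydig cells, as for Ube3a, which is imprinted in neurons.

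**Figure D3:**
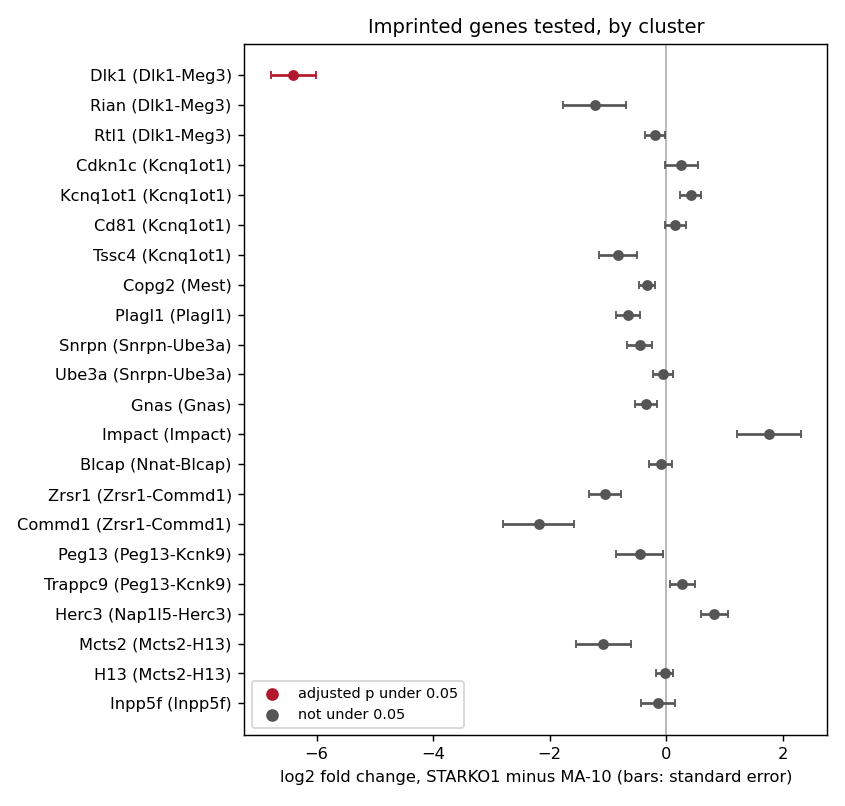
Log2 fold change (STARKO1 minus MA-10) of the 22 imprinted genes tested, with the cluster of each gene in parentheses. Points are edgeR estimates and bars their standard error. Dlk1, in red, is the gene with an adjusted p under 0.05, and the others lie between -2.19 (Commd1) and 1.76 (Impact).

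Zrsr1 and Commd1 had the lowest adjusted p values after Dlk1, and both were below MA-10 in every STARKO1 library. Zrsr1, a splicing factor gene that arose as a retrocopy of an X-linked gene and is read from the paternal copy, lies inside an intron of Commd1 on the other strand. Commd1 also shares most of its span with Gm28048 on its own strand, and without the strand setting and the rule for shared reads, the reads of these genes cannot be told apart where they overlap. Zrsr1 stood at 72.6, 134 and 143 CPM in MA-10 cells and at 60.4, 55.2 and 52.9 CPM in STARKO1 cells (log2 fold change -1.05, SE 0.272, adjusted p = 0.0574). Commd1, known for copper export and for restraining NF-kappaB, stood at 40.8, 265 and 195 CPM in MA-10 cells and at 35.7, 39.3 and 34.4 CPM in STARKO1 cells. Commd1 had a log2 fold change of -2.19 (SE 0.609, adjusted p = 0.0632). For both genes MA-10 replicate 1 lay just above the STARKO1 libraries and the other MA-10 libraries much higher. Commd1 counts per Zrsr1 count were 0.562, 1.97 and 1.37 in MA-10 cells and 0.592, 0.713 and 0.650 in STARKO1 cells, so MA-10 replicate 1 was below all STARKO1 libraries by this measure. Without MA-10 replicate 1, the adjusted p was 5.94e-05 for Zrsr1 and 1.16e-05 for Commd1.

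Mcts2, a retrocopy read from the paternal copy, lies inside H13, the gene of signal peptide peptidase, on the same strand. Mcts2 stood at 9.51, 40.9 and 29.9 CPM in MA-10 cells and at 12.5, 12.3 and 13.1 CPM in STARKO1 cells (log2 fold change -1.08, SE 0.476, adjusted p = 0.147). Without MA-10 replicate 1 it was -1.40 with an adjusted p of 8.56e-05. Reads could also be shared between Mcts2 and its parent gene, and how the counting divided them is not given in the sources used here. The H13 libraries were at 30.3, 32.5 and 29.9 CPM and at 28.5, 30.6 and 31.6 CPM, with overlap and a log2 fold change of -0.03 (SE 0.141, adjusted p = 0.875) that turned above 0 under several settings. Mcts2 counts per H13 count were 0.314, 1.26 and 1.00 in MA-10 cells and 0.403 to 0.438 in STARKO1 cells. The spread of Mcts2 within MA-10 cells was not seen in the gene around it.

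The noncoding RNA Peg13 lies inside Trappc9, which encodes a subunit of a vesicle tethering complex, and is read from the other parental copy in brain. Trappc9 stood at 39.0, 23.2 and 33.6 CPM in MA-10 cells and at 37.3, 37.5 and 40.7 CPM in STARKO1 cells, with overlap. Its log2 fold change was 0.27 (adjusted p = 0.374). Peg13 was at 0.963 ± 0.306 CPM in MA-10 against 0.718 ± 0.256 CPM in STARKO1 cells (log2 fold change -0.46, adjusted p = 0.424).

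**Figure D4:**
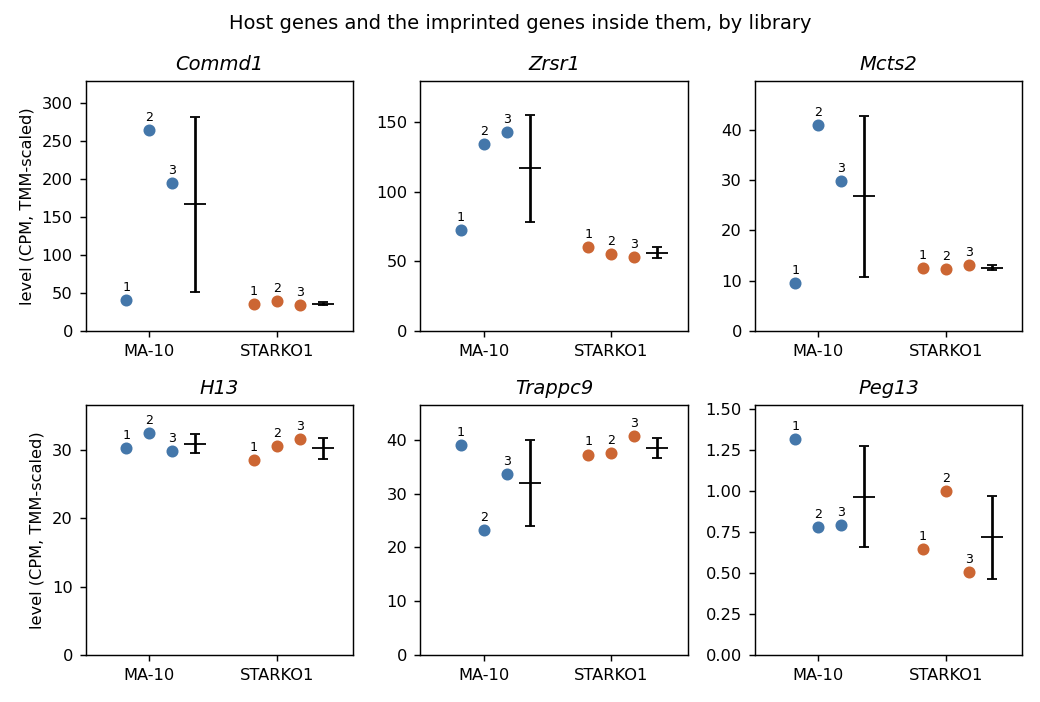
Level (CPM on TMM-scaled library sizes, linear axes from 0 with a range of their own in each panel) of 3 host genes, Commd1, H13 and Trappc9, and of the imprinted genes inside them, Zrsr1, Mcts2 and Peg13. Points are libraries numbered by replicate, and black bars are the mean ± SD of 3 libraries. For Commd1, Zrsr1 and Mcts2 the MA-10 libraries 2 and 3 stand above MA-10 library 1 and above all STARKO1 libraries.

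Plagl1, Herc3 and Impact also had groups that did not overlap. Plagl1, a zinc finger transcription factor that can stop the cell cycle and is read from the paternal copy, stood at 33.6, 21.6 and 31.6 CPM in MA-10 cells and at 18.1, 19 and 17.8 CPM in STARKO1 cells. The STARKO1 libraries were all lower and close together. The log2 fold change was -0.66 (SE 0.203, adjusted p = 0.0743), and Plagl1 passed when MA-10 replicate 1 or MA-10 replicate 2 was left out. Herc3, a gene of the HECT ubiquitin ligase family that surrounds imprinted Nap1l5, stood at 12.3, 6.85 and 10 CPM in MA-10 cells and at 18.1, 16.9 and 16.5 CPM in STARKO1 cells. The STARKO1 libraries were all higher, with a log2 fold change of 0.82 (SE 0.234, adjusted p = 0.0663). Impact, an inhibitor of the kinase GCN2, was counted 23, 2 and 7 times in MA-10 cells and 59, 44 and 44 times in STARKO1 cells. These counts correspond to 1.32, 0.173 and 0.616 CPM and to 2.54, 2.59 and 2.47 CPM. Its MA-10 counts were few, and all were below the STARKO1 counts. The log2 fold change was 1.76 (SE 0.549, adjusted p = 0.0764), and it was 2.75 with an adjusted p of 0.000895 without MA-10 replicate 1.

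In the Kcnq1ot1 cluster, 4 genes were tested and 0 passed. In edgeR's test without adjustment 1 of them had a p under 0.05, and DESeq2 called 0, against 37.6% and 28.4% of all genes. Without MA-10 replicate 1, 3 of the 4 passed, as did 65.7% of all genes, with log2 fold changes of 0.65 for Cdkn1c (adjusted p = 0.0183), 0.62 for Kcnq1ot1 (adjusted p = 0.00833) and -1.0 for Tssc4 (adjusted p = 0.00214). Cd81, which encodes a membrane protein of the tetraspanin family, had the highest level, at 203, 210 and 159 CPM in MA-10 cells and 201, 215 and 217 CPM in STARKO1 cells. Its groups overlapped (log2 fold change 0.15, adjusted p = 0.558). Kcnq1ot1, the paternal noncoding RNA that silences the cluster in cis, was at 6.76, 5.64 and 5.46 CPM in MA-10 cells and at 8.39, 7.43 and 8.20 CPM in STARKO1 cells. Every STARKO1 library was higher, with a log2 fold change of 0.42 (SE 0.181, adjusted p = 0.137). Cdkn1c, the maternal gene of the cell cycle inhibitor p57, was at 6.97 ± 2.39 CPM in MA-10 against 8.42 ± 1.14 CPM in STARKO1 cells, with overlap (log2 fold change 0.26, adjusted p = 0.502). Tssc4, which takes part in assembling the spliceosome, was at 12.1 ± 5.28 and 6.81 ± 0.392 CPM (log2 fold change -0.83, SE 0.323, adjusted p = 0.115), and its STARKO1 libraries were all lower. Kcnq1ot1 lies opposite Kcnq1, Tssc4 opposite Trpm5 and Cd81 opposite R74862, and without the strand their reads cannot be told apart where they overlap.

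Gnas encodes the G protein subunit that couples the luteinizing hormone receptor of Leydig cells to adenylyl cyclase. It stood at 538, 668 and 587 CPM in MA-10 cells and at 478, 478 and 454 CPM in STARKO1 cells. The STARKO1 libraries were all lower, with a log2 fold change of -0.35 (SE 0.189, adjusted p = 0.216) that turned to 0.12 when libraries were scaled by their totals alone. Gnas lies opposite Gm20721 and Nespas, and without the strand their reads cannot be told apart where they overlap. Ube3a, a ubiquitin ligase imprinted in neurons, stood at 199, 166 and 203 CPM in MA-10 cells and at 174, 189 and 181 CPM in STARKO1 cells, with overlap. Its log2 fold change was -0.06 (adjusted p = 0.796), and it turned above 0 under several settings. The same limit of strand holds for Ube3a, which lies opposite parts of 9330162G02Rik and Snhg14. Snrpn, which lies in the same cluster and encodes a core protein of spliceosomal particles, was at 18.4 ± 4.36 and 13.3 ± 0.461 CPM (log2 fold change -0.46, adjusted p = 0.159). Snrpn shares its locus with Snurf and Gm38393 on the same strand, and the counting could divide their reads in more than one way.

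Copg2, a coat protein gene beside Mest, stood at 26.1, 24.1 and 23.1 CPM in MA-10 cells and at 19.4, 19.3 and 19.4 CPM in STARKO1 cells. The STARKO1 libraries were all lower, with a log2 fold change of -0.33 (SE 0.142, adjusted p = 0.137) that turned to 0.09 when libraries were scaled by their totals alone. Blcap stood at 6.87, 8.24 and 8.81 CPM in MA-10 cells and at 7.05, 6.84 and 8.43 CPM in STARKO1 cells, with overlap (log2 fold change -0.10, adjusted p = 0.722). Inpp5f, an inositol phosphatase gene, stood at 9.11, 4.77 and 4.93 CPM in MA-10 cells and at 5.33, 5.78 and 6.07 CPM in STARKO1 cells. MA-10 replicate 1 was above and the other MA-10 libraries were below all STARKO1 libraries, and the log2 fold change was -0.14 (adjusted p = 0.735).

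Per kilobase of exon, the levels spanned a wide range in both cell lines. In MA-10 cells, Cd81 had the highest mean level at 66.2 CPM per kilobase, followed by Gnas at 53.4, Mcts2 at 29.4, Commd1 at 28.1 and Zrsr1 at 26.0 CPM per kilobase. In STARKO1 cells, Cd81 stood at 73.4 and Gnas at 42.0 CPM per kilobase, while Mcts2 stood at 13.8, Zrsr1 at 12.5 and Commd1 at 6.15 CPM per kilobase. Dlk1, at 4.76 CPM per kilobase in MA-10 cells, was close to Copg2 at 4.77 CPM per kilobase. Kcnq1ot1, whose annotated exon is very long, was at 0.0639 and 0.0860 CPM per kilobase. Neighbours in this order whose libraries overlapped, such as Mcts2, Commd1 and Zrsr1 in MA-10 cells, were not tested against each other.

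Among the genes whose proteins set, keep or erase imprints, 27 were tested and 4 passed (14.8%), 2 in each direction, against 9.04% of all genes. Uhrf1, which brings the maintenance methyltransferase to newly copied DNA, was higher in STARKO1 cells, with 121 ± 15.8 CPM in MA-10 against 198 ± 7.08 CPM in STARKO1 cells (log2 fold change 0.71, SE 0.168, adjusted p = 0.0483). Setdb1, a histone H3 lysine methyltransferase recruited by TRIM28, was higher as well, with 15.5 ± 6.75 and 42.8 ± 1.63 CPM (log2 fold change 1.46, SE 0.303, adjusted p = 0.0359). Tet1, which oxidizes methylated cytosine, was lower, with counts of 13, 19 and 12 in MA-10 cells and 2, 4 and 0 in STARKO1 cells (log2 fold change -3.35, SE 0.752, adjusted p = 0.0430). Rb1, the retinoblastoma tumor suppressor, was lower, with 19.8 ± 0.393 and 7.54 ± 0.964 CPM (log2 fold change -1.39, SE 0.167, adjusted p = 0.00742). When a library was left out, the calls of Uhrf1, Setdb1 and Tet1 held only without MA-10 replicate 1, and that of Rb1 held without any of the 3 MA-10 libraries and was lost without any of the 3 STARKO1 libraries, with an adjusted p of up to 0.0720. The number called was 14 without MA-10 replicate 1, when 65.7% of all genes passed. It was 0 or 1 without any other library, when 0.730% to 4.19% of all genes passed.

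The 3 DNA methyltransferase genes tested did not pass. Dnmt1, which copies methylation at cell division, was at 246 ± 29.2 and 277 ± 8.07 CPM (log2 fold change 0.17, adjusted p = 0.489), and Dnmt3a was at 131 ± 24.2 and 141 ± 3.22 CPM (log2 fold change 0.11, adjusted p = 0.687), an estimate that turned to -0.04 without MA-10 replicate 2. Dnmt3b was at 7.69 ± 1.28 and 10.8 ± 1.14 CPM, with every STARKO1 library higher (log2 fold change 0.49, adjusted p = 0.119), and its adjusted p was 0.0296 without MA-10 replicate 1. Ctcf, whose protein separates enhancers from promoters at imprinted clusters, was at 84.3 ± 7.75 and 85.3 ± 0.888 CPM (log2 fold change 0.02, SE 0.147). Trim28, which keeps imprints together with ZFP57 and ZFP445, was at 135 ± 75.2 and 348 ± 25.1 CPM, with a log2 fold change of 1.37 and an adjusted p of 0.0657. Zfp445 was at 28.4 ± 3.13 and 29.5 ± 1.98 CPM (log2 fold change 0.05, SE 0.157).

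**Figure D5:**
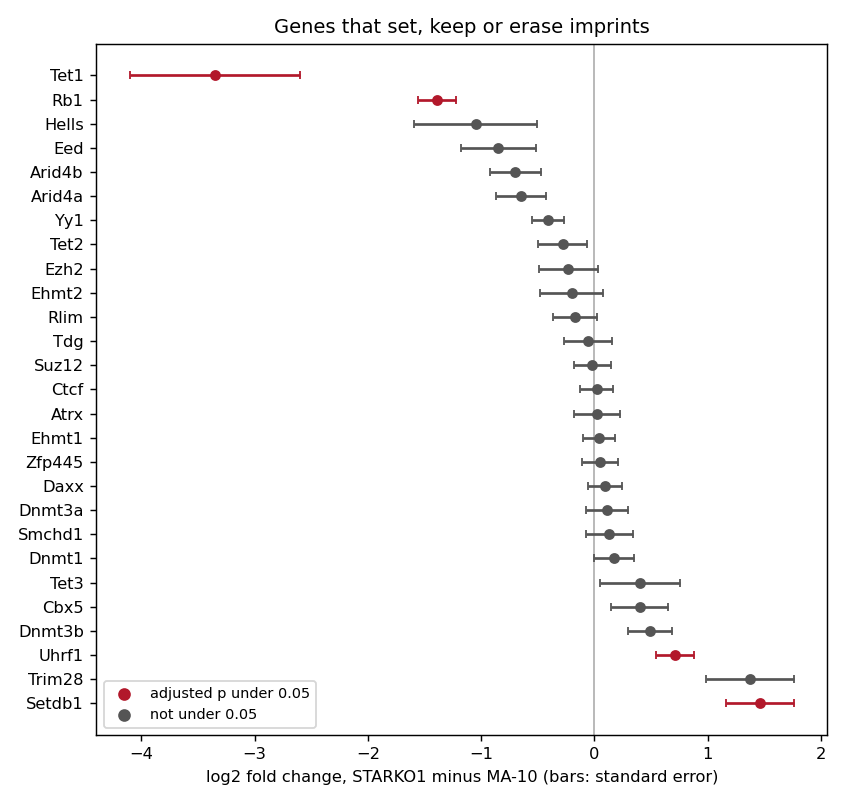
Log2 fold change (STARKO1 minus MA-10) of the 27 tested genes whose proteins set, keep or erase imprints, in order of their estimate. Points are edgeR estimates and bars their standard error. The 4 red points, Tet1, Rb1, Uhrf1 and Setdb1, had an adjusted p under 0.05.

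Of 42 further genes reported as imprinted in some mouse tissue or lying beside imprinted genes, 15 were tested and 1 passed, or 6.67% against 9.04% of all genes, with a median log2 fold change of 0.23. Without MA-10 replicate 1 the count was 11, when 65.7% of all genes passed. Ampd3, an AMP deaminase gene, was counted among these and was higher in STARKO1 cells, with 3.26 ± 0.383 CPM in MA-10 against 17.0 ± 2.36 CPM in STARKO1 cells (log2 fold change 2.37, SE 0.200, adjusted p = 0.00241). This call held when any of the 6 libraries was left out. Chrac1, a gene beside Trappc9 that encodes a chromatin remodeling subunit, was at 44.7 ± 25.3 and 15.4 ± 0.778 CPM (log2 fold change -1.53, adjusted p = 0.0657), and Rhox5, an X-linked homeobox gene, was at 390 ± 100 and 559 ± 10.8 CPM (log2 fold change 0.52, adjusted p = 0.153). Of the 173 tested genes within 1 Mb of any of the clusters, 15 passed (8.67%, against 9.04% of all genes), 5 higher and 10 lower, with a median log2 fold change of -0.12. Of these 173, 107 passed without MA-10 replicate 1, when 65.7% of all genes passed.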

How the data were processed

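Gene by gene, RNA levels of 3 MA-10 libraries and 3 STARKO1 libraries were compared. Per the labels each is a separate sample, and the authors deposited estimated counts per gene and library, not scaled, with coordinates of mouse build mm10 (GRCm38). The submitters' processing notes name STAR 2.6.1d and Partek, and the strand setting of the counting is not given in the sources used here. Because 54.2% of the genes held a value that was not whole, the estimated counts were rounded. They were fitted with edgeR 4.0.16 (filterByExpr, TMM scaling, quasi-likelihood test, Benjamini-Hochberg adjustment over 11939 genes, threshold 0.05). The standard error is the log2 fold change divided by the square root of F. CPM use the TMM-scaled library size, and levels are mean ± SD of 3 libraries. At these totals 3 counts correspond to at most 0.264 CPM. How much of the spread between libraries comes from counting was not tested. The script was checked on simulated counts.

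Values in every library are given for each imprinted gene that passed, for the gene with the highest level in each cluster, and for others that a cluster's account needed. From the other lists, genes that passed are named, and any further gene was chosen after its values were seen. The imprinted genes and all lists were chosen with earlier results of these data known. Alternatives were DESeq2 1.42.0, upper quartile scaling, library totals alone, no filter, a filter of 10 counts in every library, a replicate block, removal of the 50 most abundant genes, and leaving out each library. Gene annotation was GENCODE for GRCm38, in which 14677 of 14774 genes were found, and sequences were from RefSeq for GRCm38.p6. Other assays of the study were not analysed here.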

Additional observations from a re-analysis of the deposited data

How the results depend on the processing

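The call of Dlk1 held in every fit that tested it. The filter of 10 counts in every library removed Dlk1, which left 0 imprinted genes called and 0 lower. The fit with DESeq2 called 6 imprinted genes, 2 higher and 4 lower, and leaving out a library gave 1 to 14 called, 0 to 5 higher and 1 to 9 lower. The highest of each came without MA-10 replicate 1. The median log2 fold change of the imprinted genes was -0.16 with the filter of 10 counts, 0.16 with library totals alone, -0.12 with upper quartile scaling, and -0.32 to -0.09 when a library was left out.

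Over all genes the 1079 calls became 3395 with DESeq2, 695 with the filter of 10 counts, 330 with library totals alone, and 89 to 7990 when a library was left out. For cluster neighbours the 15 calls became 48 with DESeq2, 9 with the filter, 2 with library totals alone, and 1 to 109 without a library, counting every neighbour tested in each fit. For imprint factors the 4 calls became 7 with DESeq2, 2 with the filter, 2 with no filter, 0 with library totals alone, and 0 to 14 without a library. For other imprinted genes the 1 call became 2 with DESeq2 and 1 to 11 without a library, and for partners the 1 call became 5 with DESeq2, 0 with the filter of 10 counts and 1 to 11 without a library. In each case the highest count came without MA-10 replicate 1.

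The deviations of same-numbered libraries from the means of their cell lines had correlations of -0.0165, 0.0455 and 0.0201. The mean for other pairs was -0.0078. With 3 libraries per cell line, these values cannot decide whether same-numbered libraries shared a culture or a batch. With the replicate block, 234 genes, 5 cluster neighbours and 1 imprint factor were called, with 1 other gene within 2 Mb of Dlk1 and 11 on chromosome 12. The block left Dlk1 as the 1 imprinted gene called (log2 fold change -6.37, adjusted p = 0.00605), and Ampd3 and Lgals3 stayed under the threshold as well.

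Scaling by library totals alone turned the log2 fold change of 8 imprinted genes above 0, to 0.24 for Rtl1, 0.09 for Copg2, 0.04 for Snrpn, 0.35 for Ube3a, 0.12 for Gnas, 0.37 for Blcap, 0.41 for H13 and 0.20 for Inpp5f, and it moved the median of all genes by 0.43. Upper quartile scaling turned Ube3a (0.08), Blcap (0.06) and H13 (0.12), and moved that median by 0.15. The share of calls that were higher in STARKO1 cells was 47.5% with TMM, 63.6% with library totals alone and 55.6% with upper quartile scaling. With no filter H13 was 0.02. When a library was left out, Ube3a lay between -0.15 and 0.06, Blcap between -0.19 and 0.03, H13 between -0.06 and 0.09, and Inpp5f between -0.31 and 0.33. Among the other genes given with values, Yy1 (0.03) and Adam17 (0.01) turned with library totals alone, and Dnmt3a, Notch1 and Igf1r reached -0.04, -0.19 and -0.14 when a library was left out. The cause of these moves was not tested. Groups of 3 libraries allow no test for a single library standing apart. Counts under about 10 per library limit what can be shown, as for Mirg and for Impact in MA-10 replicates 2 and 3. The same holds in STARKO1 cells for Tet1, Ccdc85c and Dlk1. The size of the Dlk1 difference thus rests on 6 counts in each STARKO1 library.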

Other observations

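Genes whose proteins are receptors, targets or partners of the proteins the imprinted genes encode were described from a list of 26, of which 18 were tested and 1 passed, or 5.56% against 9.04% of all genes, with a median log2 fold change of -0.11. Without MA-10 replicate 1 the count was 11, when 65.7% of all genes passed. Lgals3, the gene of the sugar-binding protein galectin-3, was lower in STARKO1 cells, with 16.5 ± 2.32 CPM (SD, n = 3) for MA-10 against 1.02 ± 0.453 CPM in STARKO1 cells (edgeR log2 fold change -3.98, SE 0.348, adjusted p = 0.00275), and the call held when any of the 6 libraries was left out. Among the Notch receptors, to which DLK1 is related through its ligand-like domain, Notch1 was at 41.4 ± 20.7 and 45.3 ± 1.68 CPM, Notch2 at 41.2 ± 18.3 and 70.5 ± 5.68 CPM, and Notch4 at 1.45 ± 0.612 and 0.571 ± 0.240 CPM. None of these 3 passed in edgeR's test, with adjusted p values of 0.809, 0.143 and 0.107. Hey1, a Notch target gene, was at 4.14 ± 0.315 and 2.73 ± 0.706 CPM (adjusted p = 0.140), and Adam17, whose protease releases the outer part of DLK1, was at 44.6 ± 7.76 and 33.2 ± 1.87 CPM (adjusted p = 0.127). The log2 fold change of Adam17, -0.43, turned to 0.01 when libraries were scaled by their totals alone. Igf1r, the receptor for the imprinted growth factor IGF2, was at 51.9 ± 32.8 and 58.0 ± 1.88 CPM (adjusted p = 0.793).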
